A study of Mus musculus with 6 samples.

Results

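The cytosolic ribosomal protein genes were compared between mouse esophageal and stomach epithelial organoids on 6 single-color Agilent arrays. Members were all genes whose name on the array is Rps or Rpl with a number and at most 1 closing letter a, l or x, the stalk genes Rplp0, Rplp1 and Rplp2, and Rpsa. This gave 81 of 34298 gene names, 32 of the small and 49 of the large ribosomal subunit, carried by 188 of 55681 distinct probes. Organoids are small epithelial structures grown in a gel from tissue stem cells. The study grew them from the esophagus and from the stomach corpus of the same 3 wild-type C57BL/6 mice, numbered 1, 2 and 4, and harvested them at passage 0, all 6 samples being labelled as controls. Harvest was on day 8, and on day 7 for stomach organoids of mouse 4. Both media held EGF, noggin, FGF-10, N-acetylcysteine, nicotinamide, a TGF-β receptor kinase inhibitor and a ROCK inhibitor. Stomach medium also held WNT3A and R-spondin1 conditioned media and gastrin, esophagus medium held forskolin instead, and so tissue and medium cannot be told apart. Each group had 3 arrays, 1 per mouse.

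Ribosomal proteins coat the ribosomal RNA of the ribosome, the particle that reads mRNA and joins amino acids. The small subunit holds the decoding site and the large subunit holds the center that forms the peptide bond, the flexible stalk that recruits translation factors and the tunnel through which the new chain leaves. The proteins are made in matched amounts, and most of their mRNAs begin with a run of pyrimidines, the TOP motif, through which mTOR signaling and the RNA-binding protein Larp1 control their translation. Ribosomal protein genes are known for high transcript levels in all dividing tissues and for many processed pseudogenes, copies of the mRNA that have inserted back into the genome.

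Values are the deposited normalized log2 intensities, and differences are esophagus minus stomach on that log2 scale, with the standard error (SE) of the limma fit. A probe was called when its p-value, adjusted by the Benjamini-Hochberg method over all 55681 probes, was under 0.05. Each gene was represented by its brightest probe. The brightness of a spot depends on the probe as well as on the RNA, so it was used only to order probes and never to rank genes. Every array carried 62976 spots. Between 45.5% and 51.1% of the non-control spots of an array were well above background by the scanner software's own flag, and none was saturated. Of 8 squamous markers, 7 were called higher in esophageal organoids. The exception was the brightest probe of Trp63, a squamous transcription factor, which was called higher in stomach organoids (difference -1.22, limma adjusted p = 0.0249). Other probes of Trp63 are not given here, and the paper reports P63 protein in esophageal organoids. All 11 columnar markers were called higher in stomach organoids. Of 6 fibroblast, 4 smooth muscle, 5 immune and 3 endothelial markers none was called. No array had the fibroblast markers Lum and Pdgfra, the smooth muscle markers Des and Myh11, the immune markers Ptprc and Lyz2 or the endothelial marker Cdh5 well above background. All 6 arrays had the smooth muscle marker Tagln, the immune markers Cd68 and Cd3e and the endothelial markers Kdr and Pecam1 well above it. Cd68, a lysosomal protein of macrophages, read 11.04, 11.22 and 12.36 in the stomach and 14.77, 12.94 and 11.80 in the esophagus, with overlap, and the part of such cells in the results was not tested. All 6 markers of dividing cells were well above background on all 6 arrays and none was called. The median of these 6 markers ranged from 11.68 to 12.80 over the esophagus arrays and from 11.49 to 11.88 over the stomach arrays, and the part of cell division in the results below was not tested.

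The 60-base probe sequences are shown for genes on which the results turn, Rps23 as the only called brightest probe, Rps4l as the member with the widest spread, and Rpl34, Rplp1 and Rps6 as genes whose probes disagreed. They read 5′ to 3′ as the mRNA does. Capitals mark bases that lie in a stretch of 20 or more found also in a probe of another gene name, which is where a pseudogene or a relative could bind the same spot. The files place them (mm9) at chr13:91063336-91063974, plus strand, across an intron for Rps23, chr6:148304043-148304102, plus strand, for Rps4l, chr3:130429830-130431677 across an intron and chr3:130431671-130431730, minus strand, for the brighter and the dimmer probe of Rpl34, chr9:61761259-61761318, minus strand, for the dimmer probe of Rplp1, and chr4:86500748-86500807, minus strand, for the brightest probe of Rps6.
Rps23: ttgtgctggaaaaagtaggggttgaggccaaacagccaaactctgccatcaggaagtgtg
Rps4l: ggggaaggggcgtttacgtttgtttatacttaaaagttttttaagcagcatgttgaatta
Rpl34 brighter: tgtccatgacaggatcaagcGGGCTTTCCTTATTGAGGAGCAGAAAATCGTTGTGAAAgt
Rpl34 dimmer: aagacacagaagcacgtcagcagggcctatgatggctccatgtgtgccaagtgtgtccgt
Rplp1 dimmer: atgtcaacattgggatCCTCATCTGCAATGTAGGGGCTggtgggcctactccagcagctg
Rps6 brightest: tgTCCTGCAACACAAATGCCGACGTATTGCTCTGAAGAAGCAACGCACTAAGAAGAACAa
Of the 188 member probes, 85 (45.2%) shared such a stretch with a probe of another name, and so did 35 of the 81 brightest probes. The values of these probes may include RNA of the relatives and are uncertain to that extent. Only probes on the arrays were searched, not the genome, so a relative without a probe of its own was not seen. Whether the other member probes, that of Rps23 among them, also bind such RNA was not tested.

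Ribosomal protein genes differed little between the tissues on their brightest probes. Of the 81 members, 77 were well above background on all 6 arrays, and their median difference was 0.12, with a range from -0.44 to 0.70. The median over all 15649 genes well above background on all 6 arrays was 0.09. Only Rps23 was called higher in esophageal organoids, 1 of 77 members (1.30%), and none was called higher in stomach organoids. Over all 15649 genes, 11.1% were called toward the esophagus and 10.6% toward the stomach, and over all 34298 gene names the shares were 7.15% and 7.70%. Levels of the 77 members ran from 14.57 to 17.76, and the median level of all 15649 genes was 9.87. Of the 823 other probes at a mean log2 intensity of 15 or over, 2.19% were called toward the esophagus and 6.68% toward the stomach. That limit was chosen after the values had been seen. By limma without adjustment, 8 of the 77 had a p under 0.05, against 6422 of the 15649 genes. By the threshold of the methods, a p under 0.05 with a 1.5-fold change, 1 member passed toward the esophagus and none toward the stomach, against 17.8% and 15.4% of all genes. The p of that threshold was taken here as the limma p without adjustment. In bulk RNA, fewer cells of a type and less RNA per cell cannot be told apart.

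The intervals put a size on this narrow spread. For 52 of the 77 members the 95% interval of the difference lay inside 1.5-fold in both directions, which held for 14.3% of all genes well above background. That share was not computed for genes at the level of the members. Other probes also spread less at high level. Their lower and upper quartiles of the difference were -0.47 and 0.56 at a mean log2 intensity of 8 to 10. At 16 to 17 they were -0.10 and 0.30, against 0.02 and 0.30 for member probes. At 17 or over they were -0.01 and 0.15, against 0.02 and 0.16 for member probes. The median SE was 0.15 for the members and 0.22 for all genes well above background. The difference was positive for 60 of the 77 members (77.9%), against 56.3% of all these genes. With normexp and an offset of 16 the median was 0.08 for the members and 0.08 for all genes, and 54 of the 77 were positive. With 75th percentile scaling these medians were 0.28 and 0.22, and 71 of the 77 were positive. All 3 esophagus values lay above all 3 stomach values for 21 members, 27.3%, against 23.7% of all genes. The opposite order was seen for 3 members, against 17.8% of all genes. Small subunit genes (31 above background) had a median of 0.16 and large subunit genes (46) a median of 0.12.

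**Figure D1:**
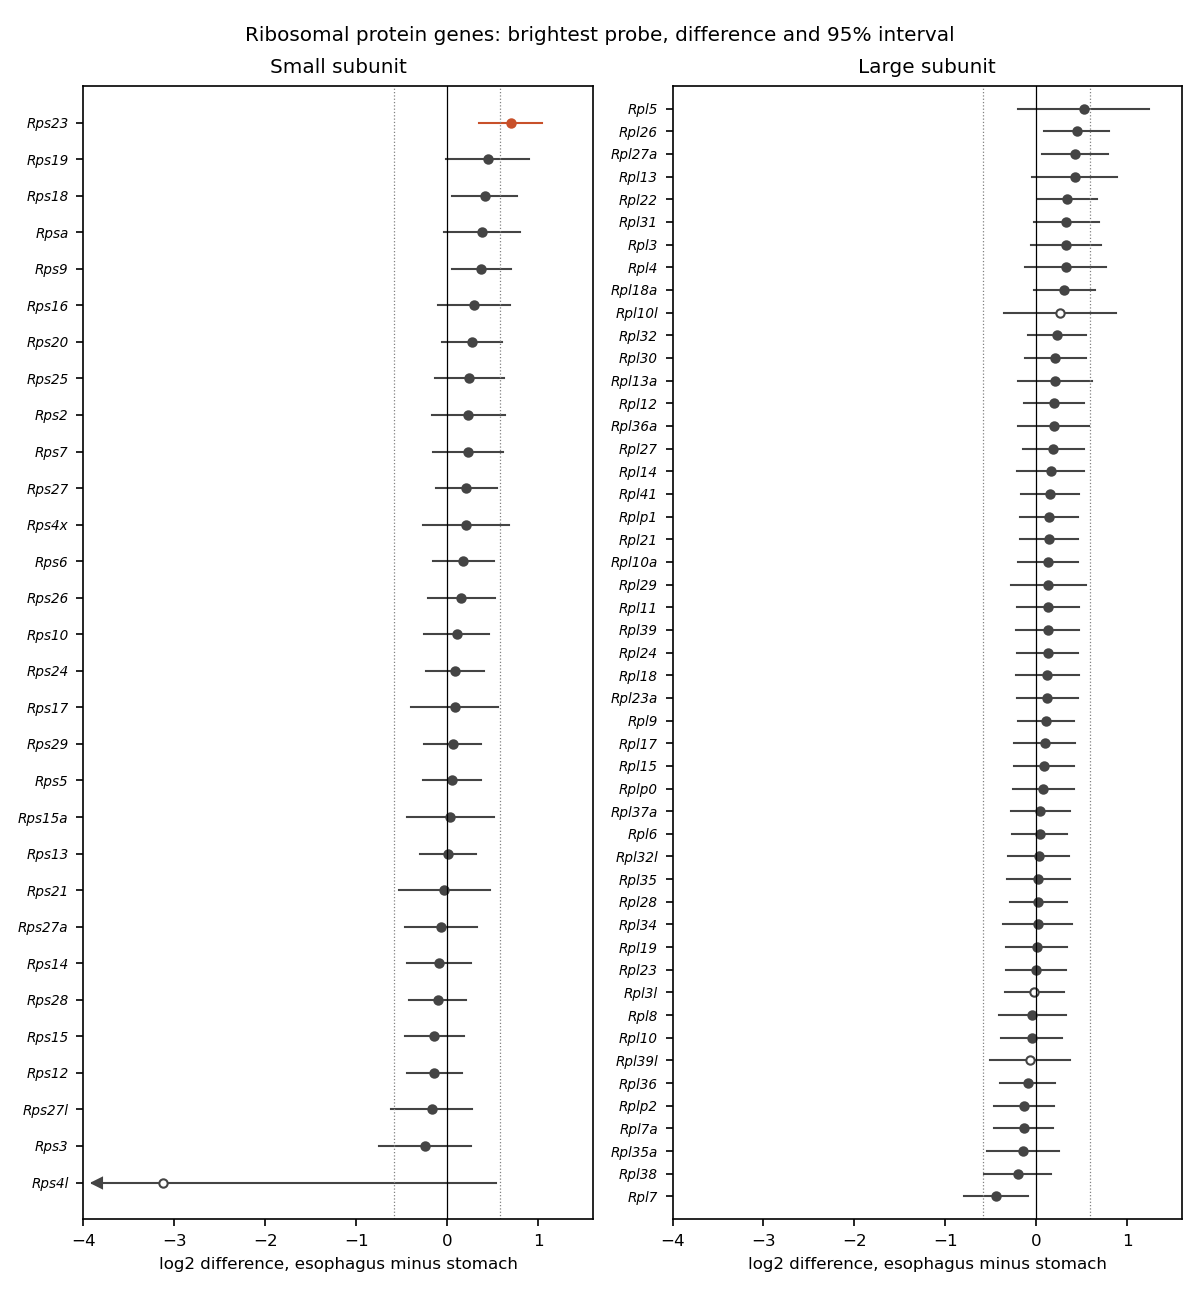
Difference of the brightest probe (esophagus minus stomach, log2) with its 95% interval for small subunit genes (left) and large subunit genes (right). Rps23 (orange) is the only called gene, open circles are the 4 genes not well above background on all 6 arrays, dotted lines mark 1.5-fold, and the arrow marks the interval of Rps4l, which runs on to -6.79.

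Rps23 encodes a small subunit protein beside the decoding center. Its brightest probe, the only probe of the gene, read 16.12, 16.37 and 16.24 on the stomach arrays of mice 1, 2 and 4 and 17.09, 16.91 and 16.83 on the esophagus arrays. The groups did not overlap, and the lowest esophagus array stood above the highest stomach array. The difference was 0.70 (SE 0.15, n = 3 and 3), 1.62-fold, with an adjusted p of 0.0213 in limma. The probe shared no 20-base stretch with a probe of another name. With the mouse as a replicate block the difference was the same and the limma adjusted p was 0.0600. It was above 0.05 also with 75th percentile scaling (0.119) and without stomach array 1 (0.101), stomach array 2 (0.0513), esophagus array 1 (0.0588) or esophagus array 2 (0.0613). The difference was 0.88 with 75th percentile scaling and 0.63 to 0.76 with each array left out.

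Other members whose arrays were ordered in the same way did not pass the test. Rpl26, at the mouth of the exit tunnel, read 15.99, 16.05 and 16.23 in stomach organoids and 16.69, 16.40 and 16.51 in esophageal organoids. The groups did not overlap, with a difference of 0.44 (SE 0.15, limma adjusted p = 0.120). Rps18, in the small subunit head, was almost level in the stomach at 15.65, 15.66 and 15.60 and read 16.17, 15.81 and 16.17 in the esophagus. Its difference was 0.41 (SE 0.16, limma adjusted p = 0.152), and its probe shared a stretch with another name.

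Rpl7, a large subunit protein, had the lowest difference of the members above background. It read 16.01, 16.29 and 15.97 in stomach organoids and 15.72, 15.62 and 15.60 in esophageal organoids, and all stomach values were above all esophagus values. The difference was -0.44 (SE 0.15, limma adjusted p = 0.115). The 3 other probes of Rpl7 gave -0.10, -0.52 and -0.22, so all 4 had the same sign. In the files' coordinates the probes at -0.52 and -0.22 overlap the brightest one. All 4 read RNA of the same gene and are not independent, and the brightest shared a stretch with another name. Rps12, a protein of the small subunit beak, showed how tight replicates could be, at 17.05, 17.14 and 17.12 in the stomach and 16.97, 16.97 and 16.95 in the esophagus. That order without overlap came with a difference of only -0.14 (SE 0.13).

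**Figure D2:**
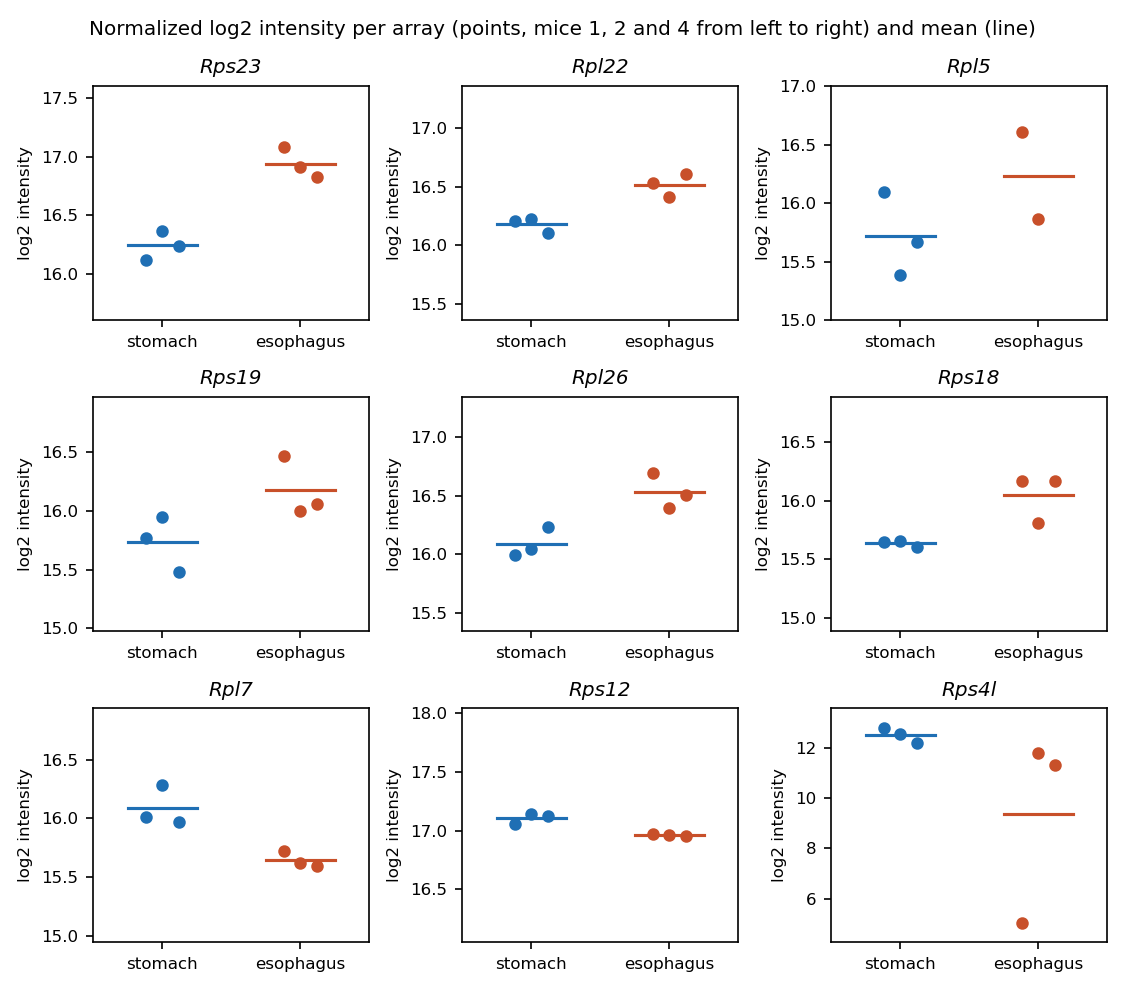
Normalized log2 intensity of the brightest probe on each array for 9 members, with the group mean as a line and each axis scaled to its gene. Rps23 separates the tissues by 0.70, Rpl7 is lower in esophageal organoids by 0.44, Rpl5 has no value on esophagus array 4, and 1 esophagus array of Rps4l lies at 5.04.

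Members with known roles beyond the ribosome differed by -0.24 to 0.52. Rpl5 and Rpl11 carry the 5S RNA into the large subunit and, when free, bind Mdm2, the ubiquitin ligase of p53. Rpl11 read 16.73, 16.66 and 16.62 in the stomach and 16.76, 16.66 and 16.97 in the esophagus, a difference of 0.13 (SE 0.15) between overlapping groups. Rpl5 varied more within each tissue, with 16.10, 15.39 and 15.67 against 16.61 and 15.86, its spot on esophagus array 4 being marked as an outlier by the software and left empty. Its difference of 0.52 had an SE of 0.30 and a 95% interval from -0.20 to 1.24.

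Rps19, needed for the maturation of the small subunit head and often mutated in Diamond-Blackfan anemia, differed by 0.44 (SE 0.19, limma adjusted p = 0.218), with stomach values of 15.77, 15.95 and 15.48 and esophagus values of 16.47, 16.004 and 16.06. Rps6, the S6 kinase substrate, differed by 0.18 (SE 0.14) and Rpl22, an RNA-binding protein with a role in lymphocyte development, by 0.34 (SE 0.14, 95% interval 0.02 to 0.66). In Rps19, Rps6 and Rpl22 all esophagus values were above all stomach values, an order seen for 23.7% of all genes well above background. Rpl38, known from its part in the translation of Hox mRNAs, differed by -0.21 (SE 0.16), and Rps3, which also acts in DNA repair, by -0.24 (SE 0.22). Rpsa, also described as a laminin receptor, differed by 0.38 (SE 0.18), Rpl13a, which can leave the ribosome to repress translation, by 0.20 (SE 0.17) and Rps27a, made as a fusion with ubiquitin, by -0.06 (SE 0.17). None of these 10 genes was called on its brightest probe. Of all genes well above background, 11.1% were called toward the esophagus and 10.6% toward the stomach.

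The stalk genes had small differences. Rplp0 anchors the stalk and differed by 0.08 (SE 0.14), Rplp1 by 0.14 (SE 0.14) and Rplp2 by -0.13 (SE 0.14), and all 3 intervals lay inside 1.5-fold. Among the 11 proteins of the exit tunnel the median difference was 0.12, with 10 positive and none called, where 11.1% and 10.6% of all genes were called toward the esophagus and the stomach. The 14 measured proteins of the small subunit head and beak had a median of 0.07 and none called, beside the same shares. The pair of the central protuberance, Rpl5 and Rpl11, had a median of 0.32, and the difference of Rpl5 ran from 0.14 to 0.90 over its 14 alternatives.

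Paralogs, gene copies with a restricted pattern in other tissues, fell into a set near background and a set well above it. Rpl3l, the heart and skeletal muscle form of Rpl3, and Rpl39l, a form found in testis, were not well above background on any of the 6 arrays. Rpl10l, the testis form of Rpl10, was above it only on esophagus array 1, at 5.89, while its other 5 arrays read 4.85 to 5.30. Rps27l, a p53-responsive form of Rps27, was above background on every array at 15.15, 14.96 and 14.74 in the stomach and 14.78, 14.52 and 15.04 in the esophagus, a difference of -0.17 (SE 0.19). Rpl32l was also above background on every array, at a mean log2 intensity of 16.58, and differed by 0.02 (SE 0.14). Its probe shared no stretch with a probe of another name, but whether it also binds RNA of Rpl32 was not tested.

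Rps4l, a transcribed pseudogene of the Rps4 family in the RefSeq table, had the widest spread of all members. Stomach arrays read 12.80, 12.53 and 12.16, and esophagus arrays of mice 2 and 4 read 11.77 and 11.30. Esophagus array 1 read 5.04 and was not well above background. Its raw median spot signal there was 41.0 over a local background of 21.0, while the other 5 arrays gave raw signals of 2744.5 to 6650.5, and the spot was not marked as an outlier. Stomach organoids of the same mouse gave the highest value of the 6. The difference over all arrays was -3.13 (SE 1.58, limma adjusted p = 0.290), and without esophagus array 1 it was -0.96 (limma adjusted p = 0.0522). The gene rests on 1 spot per array, and whether the low reading belongs to the spot or to the RNA was not tested.

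The level of the members was also compared across arrays. Over the 76 members above background with a value on every array, the median level was 16.64, 16.65 and 16.62 on the stomach arrays and 16.81, 16.70 and 16.72 on the esophagus arrays. The highest value of a gene lay on stomach arrays 1, 2 and 4 for 7, 14 and 0 of the 76 genes. It lay on esophagus arrays 1, 2 and 4 for 35, 5 and 15. All 3 esophagus medians were above all 3 stomach medians, by a gap smaller than the range among the esophagus arrays. The median deviation from each gene's own mean overlapped, at 0.01, -0.05 and -0.11 on the stomach arrays and 0.12, -0.01 and 0.08 on the esophagus arrays. The deposited values were quantile normalized, every array had the same highest value of 17.88, and between 96 and 112 member probes stood among the 496 to 555 probes of 16 or more on an array. Quantile normalization aligns the distributions of the arrays, the brightest spots included. With 75th percentile scaling of the scanner software's background-subtracted signal in place of the deposited values, the median of the members above background was 0.28, and the median of all genes above background also moved, from 0.09 to 0.22.

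Dimmer probes of the same genes gave a different picture. Besides the brightest, 103 further probes of members were well above background on all 6 arrays. Their median difference was 0.25, against 0.11 for the 5752 dimmer probes of all genes, and 79 of the 103 were positive. Of these 103 probes 14 were called, all higher in esophageal organoids and in 13 genes, a share of 13.6%. Of all 5752 dimmer probes 9.65% were called toward the esophagus and 7.16% toward the stomach. The esophagus values lay wholly above the stomach values for 38 of the 103 probes, against 22.5% of all dimmer probes. In limma with the replicate block the count was 8, without esophagus array 4 or with the slide as a block 4, and without stomach array 1 or stomach array 2 it was 1. Without stomach array 4, the day 7 sample, it was 5, and without esophagus array 1 or esophagus array 2 it was 6 and 8. With 75th percentile scaling it was 5, while the median difference of the 103 probes was 0.51 and 96 were positive. With normexp at either offset it was 12, and 1 dimmer member probe was called toward the stomach.

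The size of the difference went with the level of the probe. Of 141 member probes with a mean log2 intensity of 15 or over, 3 were called toward the esophagus (2.13%) and none toward the stomach. Of the 823 other probes at that level 18 were called toward the esophagus (2.19%) and 55 toward the stomach (6.68%). Of 39 member probes under 15, 12 were called toward the esophagus (30.8%) and none toward the stomach, while 11.1% and 9.88% of the 20398 other probes under 15 were called in these directions. The median difference of the 39 dim member probes was 0.49, and that of the other dim probes was 0.10. The limit of 15 was chosen after the values had been seen. Over finer steps the median difference of the member probes was 0.76 for the 2 probes under 8, 1.04 for the 7 between 8 and 10, 0.78 for the 5 between 10 and 12 and 0.48 for the 10 between 12 and 14. It was 0.22 for the 15 between 14 and 15, 0.21 for the 37 between 15 and 16, 0.17 for the 73 between 16 and 17 and 0.09 for the 31 of 17 or over.

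**Figure D3:**
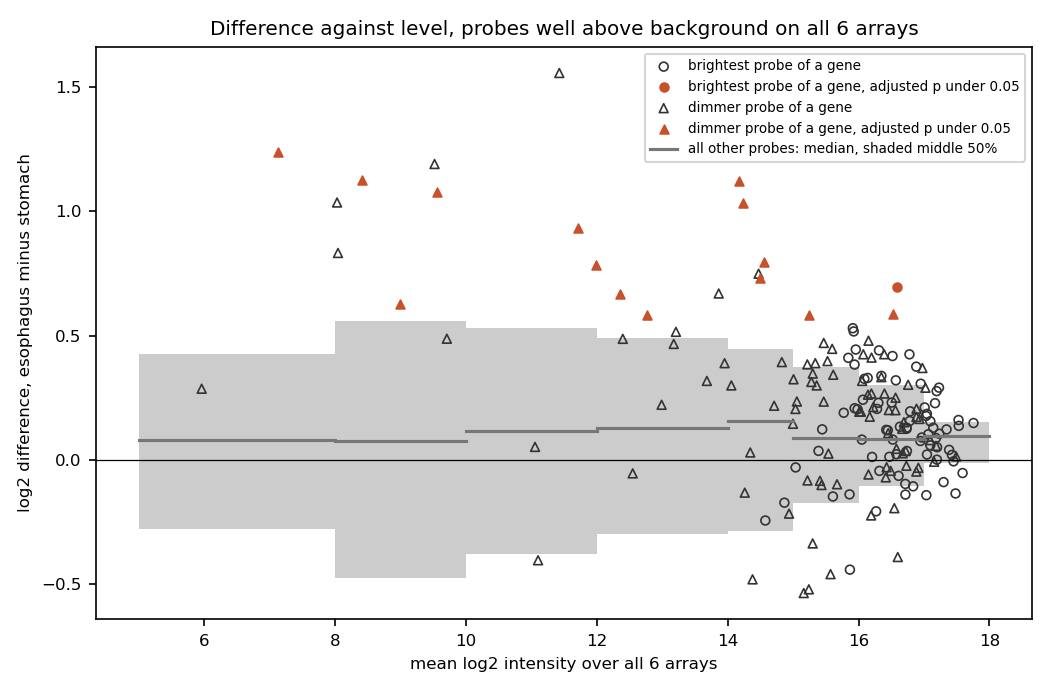
Difference (esophagus minus stomach, log2) against the mean log2 intensity over all 6 arrays for the 180 member probes well above background on all 6 arrays, circles for the brightest probe of a gene and triangles for dimmer ones, orange where called. The line and grey band are the median and middle 50% of all other probes at each level, and most called member probes lie above the band and under a mean of 15.

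In 59 members at least 2 probes were well above background on all 6 arrays. The dimmest of these probes differed more toward the esophagus than the brightest in 46 of the 59 genes (78%), against 55.5% of the 4130 genes of all kinds with at least 2 such probes, and the median difference was 0.32 for the dimmest and 0.12 for the brightest. Within a gene the differences spanned a median of 0.35, and 19 genes had probes of both signs. In 13 of the 59 (22%) at least 1 probe was called, against 27.5% of the 4130 genes. In these 13 members the brightest probe was not called, which held for 7.34% of the 4130 genes. For these 13 genes the call depended on which probe was read.

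Rpl39, a small protein in the wall of the exit tunnel, gave the steadiest case. Its dimmest probe read 9.021, 9.017 and 9.004 in stomach organoids and 10.27, 9.75 and 10.26 in esophageal organoids. The stomach arrays were almost level, and all esophagus arrays stood above them. The difference was 1.08 (SE 0.18, limma adjusted p = 0.00646), 2.11-fold, and the probe was called under all 13 alternatives run for it. The 2 brighter probes of Rpl39 differed by 0.12 (SE 0.15) and -0.08 (SE 0.19). In the files' genomic coordinates (mm9) the dim probe, at chrX:34622515-34622574 on the minus strand, lies 103 bases further toward the 3′ end than the brightest one.

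Rps25, a small subunit protein used by some viral internal ribosome entry sites, had the largest called difference. Its dimmer probe read 6.37, 6.51 and 6.65 in the stomach and 7.63, 7.37 and 8.25 in the esophagus, without overlap. The difference was 1.24 (SE 0.24, limma adjusted p = 0.0122), while the brightest probe differed by 0.24 (SE 0.16). The dim probe lies 754 bases to the 3′ side of the center of the brightest one.

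Rpl13a was the only gene with 2 called probes. They read 13.45, 13.64 and 14.08 against 14.62, 14.71 and 14.94 and 13.28, 13.51 and 14.02 against 14.60, 14.41 and 15.17, with differences of 1.04 (SE 0.20, limma adjusted p = 0.0125) and 1.12 (SE 0.26, limma adjusted p = 0.0305). In the files' coordinates these probes do not overlap, but both read RNA of the same gene and are not independent. The brightest probe of Rpl13a differed by 0.20. Further called dimmer probes belonged to Rpl17 (difference 0.93), Rpl34 (0.80), Rpl14 (0.78), Rpl27 (0.73), Rpl31 (0.67), Rpl21 (0.63), Rplp1 (0.59), Rps15a (0.58) and Rps6 (0.58). With the replicate block the called dimmer probes of Rpl14, Rpl21, Rpl27, Rpl31, Rpl34, Rplp1, Rps15a and Rps6 had limma adjusted p-values of 0.0597 to 0.102 and were not called.

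**Figure D4:**
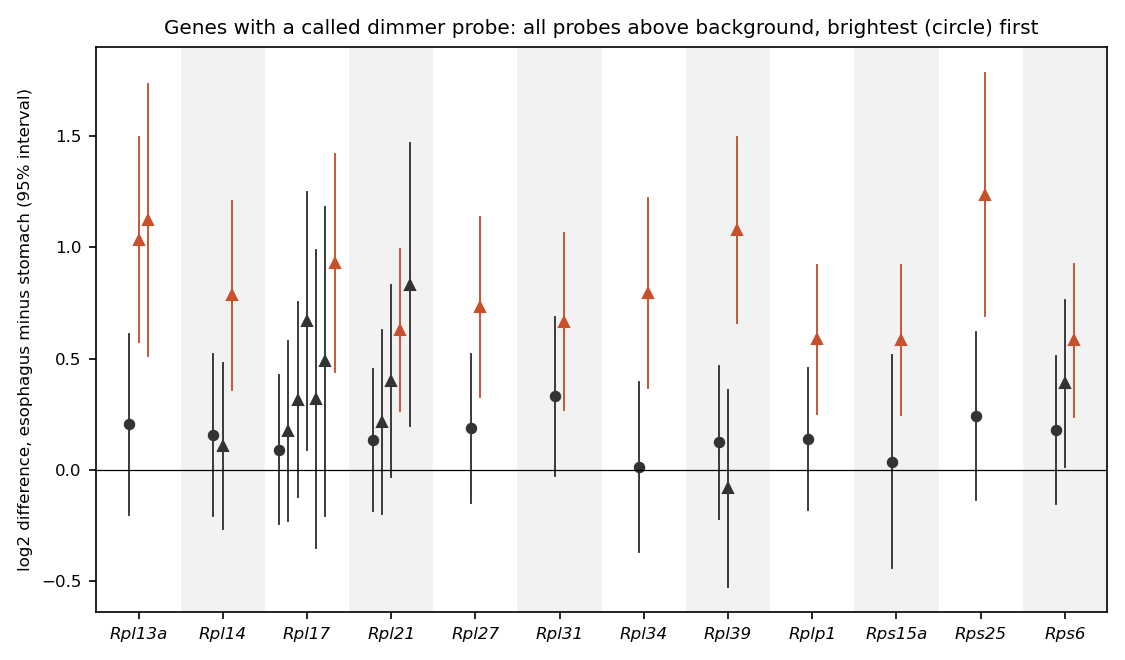
Difference (esophagus minus stomach, log2) with its 95% interval for every probe well above background on all 6 arrays of genes with a called dimmer probe, from the brightest (circle) to the dimmest, called probes in orange. The circles lie between 0.01 and 0.33 and the called triangles between 0.58 and 1.24.

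Large differences on dim probes also occurred without a call. Rps24, a small subunit protein with several transcript variants, read 11.25, 10.81 and 9.88 in the stomach and 13.59, 11.37 and 11.65 in the esophagus on its dimmest probe. That difference of 1.56 (SE 0.59, limma adjusted p = 0.156) was the largest of the member probes well above background on all 6 arrays, with esophagus array 1 well above the rest. Probes toward the stomach were the minority. The second probe of Rps27a differed by -0.54 (SE 0.15, limma adjusted p = 0.0554) while its brightest probe was at -0.06, and the second probe of Rpsa differed by -0.46 (SE 0.16) while its brightest was at 0.38.

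Position along the gene was set beside these values. Of the 103 dimmer probes, 32 lay to the 3′ side of the brightest probe, 40 to the 5′ side, 27 overlapped its interval and 4 lay elsewhere. Called were 9 of the 32 3′ probes, 4 of the 40 5′ probes and 1 of the 27 overlapping ones, against 9.65% of all dimmer probes, with median differences of 0.29, 0.36 and 0.03. The median mean log2 intensities were 13.44, 15.47 and 16.22 in the same order, so position and level moved together, and the part of each was not tested.

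Several of the probes hold the letters AATAAA, the common polyadenylation signal, read on the probe's own strand. The letters occurred in 33.0% of the 188 member probes, in 35.8% of the brightest ones and in 10.1% of all 55681 probes. Of the 15 called member probes 3 held them (20%). Stretches of 30 bases are shown with the letters in capitals, from the brightest probe of Rpl14 and from the called dimmer probes of Rpl14, Rpl39 and Rps25, which are these 3.
Rpl14 brightest: gctacacagaatAATAAAggttctttttga
Rpl14 dimmest: gttaaccctaacaAATAAAtttcccaccaa
Rpl39 dimmest: tAATAAAatatagaacctttcaaaatgctt
Rps25 dimmer: ttggaaaAATAAAactttattgaatcaaat
The brightest probe of Rpl14 is at chr9:120483487-120483546, plus strand, and its dimmest probe at chr9:120483689-120483748 (mm9), 202 bases further along. The dimmest probe of Rpl14 read 11.70, 11.503 and 11.59 in stomach organoids and 12.06, 12.46 and 12.63 in esophageal organoids. Its difference was 0.78 (SE 0.18, limma adjusted p = 0.0296), and that of the brightest probe was 0.16 (SE 0.16). Which transcript ends these probes record was not measured.

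Calls were also counted by shared sequence. Of the 85 probes that share 20 bases with another name 3 were called, and of the 103 that share none 12 were called. The median differences of these member probes were 0.14 and 0.24. Of all 55681 probes 5.94% were called toward the esophagus, and of those well above background on all 6 arrays 10.7%. Probes for named pseudogenes, Rpl31-ps12, Rpl34-ps1 and Rps15a-ps6, were above background on all 6 arrays, and their differences of 0.24, 0.17 and 0.07 did not pass the test.

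The annotated transcription starts of the members were searched for a pyrimidine run. RefSeq promoters (build GRCm38.p6), which run from 250 bases before to 50 after the annotated start, were at hand for 60 of the 81 members. A start on C followed by 4 further pyrimidines was found for 14 of the 60 (23.3%), against 3.01% of all 27025 genes with a promoter. Within 5 bases before to 10 after the start such a run was found for 48.3% of members and 21.2% of all genes. None of the 7 members shown here was called on its brightest probe, where 11.1% and 10.6% of all genes were called toward the esophagus and the stomach. Windows from 10 bases before the start are shown for these 7 of the 14, with the pyrimidine run from the start in capitals.
Rps18: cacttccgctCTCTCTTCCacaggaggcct
Rps6: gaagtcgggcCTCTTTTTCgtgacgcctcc
Rps15a: tttctgccatCTTCCCTCgccggtgagtga
Rpl14: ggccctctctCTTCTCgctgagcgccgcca
Rpl35: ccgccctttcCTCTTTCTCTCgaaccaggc
Rpl38: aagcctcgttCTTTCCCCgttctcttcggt
Rplp2: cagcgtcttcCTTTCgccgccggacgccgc
They lie at chr17:33955646-33955675, chr4:86857348-86857377, chr7:118116128-118116157, chr9:120571507-120571536, chr2:39005112-39005141, chr11:114668570-114668599 and chr7:141447641-141447670 in GRCm38.p6, in the order shown. The median difference of the brightest probe was 0.03 for the 14 members with the run at the start and 0.14 for the 46 without. With the run searched within 5 bases before to 10 after the start, the medians were 0.11 with it and 0.13 without. How exact the annotated starts are was not tested, so members without a run here may still have TOP mRNAs. The ETS-type core CGGAAG, searched on both strands of the 300 bases, was present in 66.7% of the members and 18.8% of all genes, AAGATGG, the core of a YY1 site, in 15% and 7.28%, and TATAAA in 11.7% and 15.7%. A match only describes the letters of the window.

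Other proteins of the cytosolic ribosome outside the naming rule were measured as well. Fau, made as a fusion with a ubiquitin-like domain, differed by -0.05 (SE 0.16), Rack1, a scaffold on the small subunit, by -0.13 (SE 0.16) and Rps3a1 by 0.08 (SE 0.17). The paralogs Rpl36al, Rpl22l1 and Rpl7l1 differed by 0.09, 0.26 and 0.51. None of the 7 genes of this list was called, where 11.1% and 10.6% of all genes were called toward the esophagus and the stomach. The 78 mitochondrial ribosomal protein genes, which serve the separate ribosome of mitochondria, were all above background, with a median difference of 0.19. Only Mrpl36 was called, higher in the esophagus at 0.62 (SE 0.16, limma adjusted p = 0.0392), 1 of 78 against the 11.1% of all genes.

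A list of chaperones and late assembly factors of the ribosome was described in the same way. Of 19 measured genes, all above background, 12 were called higher in esophageal organoids (63.2%, against 11.1% of all genes) and none higher in the stomach, with a median difference of 0.74. The median level of these genes was 11.41, against 16.71 for the 77 members above background. The part of level in this contrast was not tested. Nmd3, the export adaptor of the large subunit, read 8.51, 8.21 and 9.14 in the stomach and 10.32, 9.92 and 9.87 in the esophagus, without overlap. Its difference was 1.41 (SE 0.26, limma adjusted p = 0.00994). Rrs1, which helps to bring the 5S RNA with Rpl5 and Rpl11 into the large subunit, differed by 1.26 (SE 0.24, limma adjusted p = 0.0114), with 10.58, 10.52 and 11.23 against 12.30, 12.03 and 11.77.

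For the small subunit, Bysl differed by 1.08, Pno1 by 1.03, Ltv1 by 0.82, Riok2 by 0.77, Riok1 by 0.77 and Nob1, the nuclease that trims the 3′ end of 18S RNA, by 0.74. Nob1 read 8.10, 8.29 and 8.04 in the stomach and 8.91, 8.77 and 8.97 in the esophagus, and its replicates lay close together in both tissues. For the large subunit, Eif6, which keeps the subunits apart until maturation ends, differed by 1.002, Grwd1, the chaperone of Rpl3, by 0.85, Brix1 by 0.73 and Lsg1, which releases Nmd3, by 0.65. These genes were all called in limma. Not called were Bccip, Heatr3, Nap1l1, Npm1, Riok3, Sbds and Tsr2, at -0.15 to 0.58. The list was drawn up with earlier results of these data known, and its count is a description. It was 9 with the replicate block, 8 with trend and robust variances, 5 with 75th percentile scaling, 6 without esophagus array 4 or with the slide as a block, 0 without stomach array 1, 2 without stomach array 2, 6 without esophagus array 1 and 7 without esophagus array 2.

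**Figure D5:**
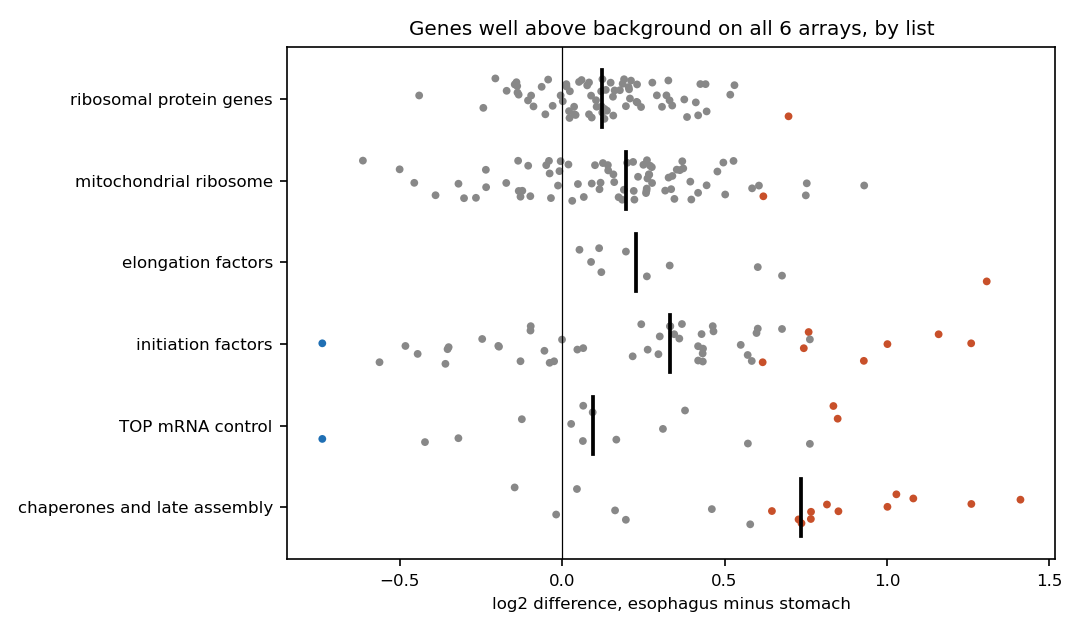
Difference (esophagus minus stomach, log2) of the brightest probe for genes well above background on all 6 arrays in 6 gene lists, each point 1 gene, orange where called higher in the esophagus, blue where called higher in the stomach, with the list's median as a line. Ribosomal protein genes center on 0.12 with 1 called of 77, and chaperones and late assembly factors on 0.74 with 12 called of 19. Their median levels were 16.71 and 11.41, and the part of level was not tested.

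Translation genes with TOP mRNAs had small differences on their brightest probes. Eef1a1, which brings aminoacyl-tRNA to the ribosome, differed by 0.12 (SE 0.17), Eef2, the translocase, by 0.20 (SE 0.14), Eef1b2 by 0.05 (SE 0.15), Eef1d by 0.33 (SE 0.14), Eef1g by 0.26 (SE 0.13), Tpt1 by 0.11 (SE 0.15), the poly(A)-binding protein Pabpc1 by 0.41 (SE 0.14) and the nucleolar chaperone Npm1 by 0.16 (SE 0.20). None was called. Of 10 elongation factor genes above background only Eef1e1, a scaffold protein of the tRNA synthetase complex, was called, at 1.31 (SE 0.32, limma adjusted p = 0.0367), a share of 10% against 11.1% of all genes.

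Initiation factor genes and their relatives had a median difference of 0.33 over 51 genes above background, with 7 called higher in esophageal organoids (13.7%, against 11.1% of all genes) and 1 lower (1.96%, against 10.6%). By name this list also takes in Eif6, counted among the called assembly genes, and Eif5a and Eif5a2 of the elongation list, so the lists are not separate. Eif1ad differed by 1.26 (SE 0.17, limma adjusted p = 0.00203), Eif2b3, of the nucleotide exchange factor of eIF2, by 1.16 and the cap-binding protein Eif4e by 0.93. Eif4ebp2, which holds Eif4e back from the cap complex, was the gene called higher in the stomach, with 12.90, 12.82 and 12.91 there and 11.81, 12.12 and 12.49 in the esophagus, a difference of -0.74 (SE 0.19, limma adjusted p = 0.0455).

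The list of genes that control TOP mRNAs holds Eif4ebp2 as well. Of its 15 genes, 2 were called higher in the esophagus (13.3%, near the 11.1% of all genes), Larp1b at 0.85 (SE 0.17, limma adjusted p = 0.0165) and Cnbp, a protein that binds TOP sequences, at 0.84 (SE 0.16, limma adjusted p = 0.0134). Larp1 differed by 0.09 (SE 0.17), Mtor by 0.57 (SE 0.23, limma adjusted p = 0.183) and its partner Rptor by 0.17 (SE 0.21), none of which was called.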

How the data were processed

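Gene expression was measured on 6 single-color arrays (3 stomach, 3 esophagus). Replicate numbers name the mouse, each of which gave a culture of either tissue. The authors extracted spot values with Agilent Feature Extraction (version 11.5.1.1, per the file headers), and the deposited scanner files hold spot intensity, local background intensity and flags. The authors' deposited table holds log2 values, background corrected and quantile normalized by them, offset not given in the sources used here. Every empty log2 cell was a spot marked as an outlier. Log2 values were averaged per probe and fitted with lmFit and eBayes (R 4.3.3, limma 3.58.1) over all non-control probes, without a block, of which the methods say nothing, and adjusted over all 55681 probes. A probe with several spots was above background where at least 0.5 of them were. Deviations of same-mouse arrays from their tissue means correlated across probes at 0.05, 0.03 and 0.01, against -0.11 to 0.04 between mice, and across member probes at 0.31, 0.20 and 0.30, against -0.31 to 0.12. Arrays per group limit the precision, and the p-values measure the spread between 3 organoid cultures per tissue. Of the arrays, 5 were on 1 slide and esophagus array 4 on another. The script was tested on simulated data with known shifts.

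Alternatives were normexp on mean intensity with offsets 16 and 50, 75th percentile scaling of the processed intensity, the mean of a gene's probes, trend and robust variances, the mouse or slide as a block, a filter on dim probes and each array left out. Their use on dimmer probes and assembly genes was added after seeing the data. The members, the gene lists and the named genes were chosen with earlier results of these data known. Named were called members, paralogs ending in l, stalk genes, 10 genes with known further roles, members whose probes disagree in call, the 3 with the largest spread within a tissue, further ribosome proteins and TOP-type genes. Others named, among them Rpl26, Rps18, Rpl7, Rps12, Rps24 and the list genes, were chosen after their values were seen. Some items are not reported here and not drawn with names in the figures. Coordinates of probes are those of the files (mm9).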

Additional observations from a re-analysis of the deposited data

How the results depend on the processing

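The number of members called higher in esophageal organoids was 1 and changed to 3 with normexp and an offset of 50, to 5 with the mean of a gene's probes, to 0 with 75th percentile scaling, to 0 with the replicate block, and to 0 to 1 with each array left out. Members called higher in stomach organoids were 0 under all 14 alternatives. By the methods' threshold the count toward the esophagus was 1 and became 5 with 75th percentile scaling and 5 with the mean of probes, with 1 to 3 when arrays were left out, and toward the stomach it became 1 with the slide block and 0 to 1 when arrays were left out. The median difference of the members, 0.12, was 0.28 with 75th percentile scaling, 0.20 with the mean of probes and 0.09 to 0.15 with each array left out. Called dimmer probes, 14, were 5 with 75th percentile scaling (with a median difference of 0.51 in place of 0.25), 8 with the replicate block, 4 with the slide block and 1 to 8 when arrays were left out. Called assembly genes, 12, were 5 with 75th percentile scaling, 6 with the slide block and 0 to 12 when arrays were left out. The cause was not tested, except that settings that leave out an array have fewer samples. On the brightest probes of the 45 named genes the replicate block ended the call of Rps23 and changed no other, and 8 called dimmer probes lost their call with it while 2 others gained one. No called difference changed its sign among these named genes and the called member probes. Among the 45 named genes, 38 results of uncalled genes near 0 changed sign, among them Rps27l, Rpl38, Rps27a, Rps3, Fau and Rack1, which were positive with 75th percentile scaling, where the median of all genes above background moved by 0.13. The slide block equals leaving out esophagus array 4, the only array of its slide. A value that was not well above background gives only a bound.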
